A study of Rattus norvegicus with 20 samples.

Results

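The mitochondrial solute carriers of family 25 were examined in alcohol-preferring (P) rats, in RNA of the amygdala's central nucleus. Members were chosen by name: every gene whose only symbol in the array's probe annotation starts with Slc25a, together with Ucp1, Ucp2 and Ucp3. This gave 43 genes of the 14217 genes with a single symbol on the array, measured by 62 of 31099 probe sets. Where a gene had several probe sets, the 1 that stands for it was selected on its mean over all 20 arrays, which uses both groups alike, and the others are given beside it. The family was taken up with earlier results of these data known, in which a probe set of Slc25a23 had 1 of the larger differences, so the ethanol difference of Slc25a23 is given as a description and supports nothing here.

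The P line is bred for high voluntary alcohol intake, and every animal of both groups belonged to it. In adolescence the ethanol group (10 rats) had access to solutions of 15% and 30% ethanol, and the water group (10 rats) drank water only. The titles number each rat separately, RNA came from the dissected nucleus, and each rat was measured on 1 array. The labels used here state no age in days, sex, amount drunk or time between the last drink and dissection, so the ethanol group stands for access to ethanol rather than for a known dose.

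Family 25 proteins sit mostly in the inner mitochondrial membrane and exchange a substrate of the matrix for a substrate of the cytosol. They carry ADP against ATP, phosphate, the aspartate, glutamate and malate of the redox shuttles, citrate, acyl-carnitines, iron, glutathione and the precursors of cofactors, and the uncoupling proteins let protons leak back. In brain, neurons depend on the aspartate/glutamate carrier Slc25a12 and on the calcium-regulated carriers of ATP-Mg to fit ATP supply to firing, while astrocytes are rich in the glutamate carrier Slc25a18.

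Values are log2 probe set summaries, and their number, 10 arrays per group, limits how precise each difference is. Array medians lay between 7.92 and 7.97. The arrays of ethanol animal 5 and of water animals 15 and 18 stood apart from the rest, with mean correlations to the other arrays under 0.990. Some results are given with and without them, and other differences, given only with them, may lean on them too. Of 13 markers of the labelled nucleus, the central amygdala, 12 lay above the filter on low values, and their mean was 11.75 in the ethanol and 11.68 in the water group. Marker levels of some other cells differed between the groups. All 14 oligodendrocyte and myelin markers were lower in the ethanol group, and their mean level ran from 11.16 to 12.74 there and from 11.90 to 13.14 in the water group, a difference of -0.39. That difference was -0.38, -0.78 and 0.37 in the 3 consecutive sets of arrays in order of deposit, each of which holds both groups. All 14 neuronal markers were higher, with a difference of 0.098 in their mean, as were the 8 striatal medium spiny neuron markers above the filter, with 0.20. Lower were 10 of 11 astrocyte markers, with -0.12, and the 6 oligodendrocyte precursor markers above the filter, with -0.16. In the 3 sets these were -0.18, -0.13 and 0.00099 for astrocytes and -0.21, -0.25 and 0.14 for precursors. Markers of microglia, of endothelial and mural cells and of cortical and basolateral excitatory neurons went in both directions, and their means differed by -0.019, -0.018 and -0.054. The means of the 4 choroid plexus and the 8 meningeal markers above the filter differed by -1.42 and -0.37, with wide overlap. Choroid plexus means ran from 6.43 to 11.46 in the ethanol and from 6.86 to 11.88 in the water group. Meningeal means ran from 7.75 to 9.24 and from 7.75 to 10.33. By set of arrays the differences were -1.51, -1.42 and -1.24 for choroid plexus and -0.22, -0.76 and 0.09 for meningeal markers. No marker passed the test, and no defining marker of myelin, neurons or astrocytes lay below the filter. The part these cells have in a result was not tested. Values adjusted for a marker score are given as descriptions. The scores themselves differed between the groups, so adjustment cannot separate cell content from a difference due to ethanol. In bulk tissue, fewer cells of a type and less RNA per cell cannot be told apart.

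Of the 43 members, 33 had a probe set whose mean lay above the filter (the 40th percentile of all probe sets, log2 7.14) and entered the test. In the comparison of ethanol with water, 0 of these 33 passed limma's test at an adjusted p under 0.05, against a background of 0.0215% of all probe sets tested. At an unadjusted limma p under 0.05 stood 6 members, 4 higher and 2 lower in the ethanol group. They are 18.2% of the 33, where 12.1% of all genes were at that level (6.33% higher and 5.77% lower). Slc25a23, whose difference was known when the family was taken up, is 1 of the 6. The share is therefore only a description. An ordinary linear model with no shared variance also passed 0 members and put 6 at an unadjusted p under 0.05. The count of 6 was 3 without ethanol animal 6 and 3 without the arrays that stand apart, namely Slc25a23, Slc25a34 and Slc25a51l1 in both cases. The split of 4 to 2 was 4 to 1 when arrays were centred on their medians and 2 to 2 after cyclic loess. Adjusted for the myelin score it was 6 higher and 0 lower, and 2 of those 6, Slc25a11 and Slc25a51l1, were among the 6 without adjustment. The share of all genes under that fit is not given, so the adjusted split cannot be called particular to the family.

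The differences were small. Across the 33 members they ran from -0.26 to 0.21 on the log2 scale, 28 lay within 0.1 of 0, and the median SE was 0.056. Higher means in the ethanol group were found for 20 members and lower means for 13, that is 60.6% higher against 56.7% of all genes tested. The members' median difference was 0.032 and that of all genes was 0.013, while the median size of a difference regardless of sign was 0.062 for members and 0.057 for all genes. The family as a whole therefore lay near the rest of the array in this comparison. Limma's adjusted p of the members ran from 0.239 to 0.998.

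**Figure D1:**
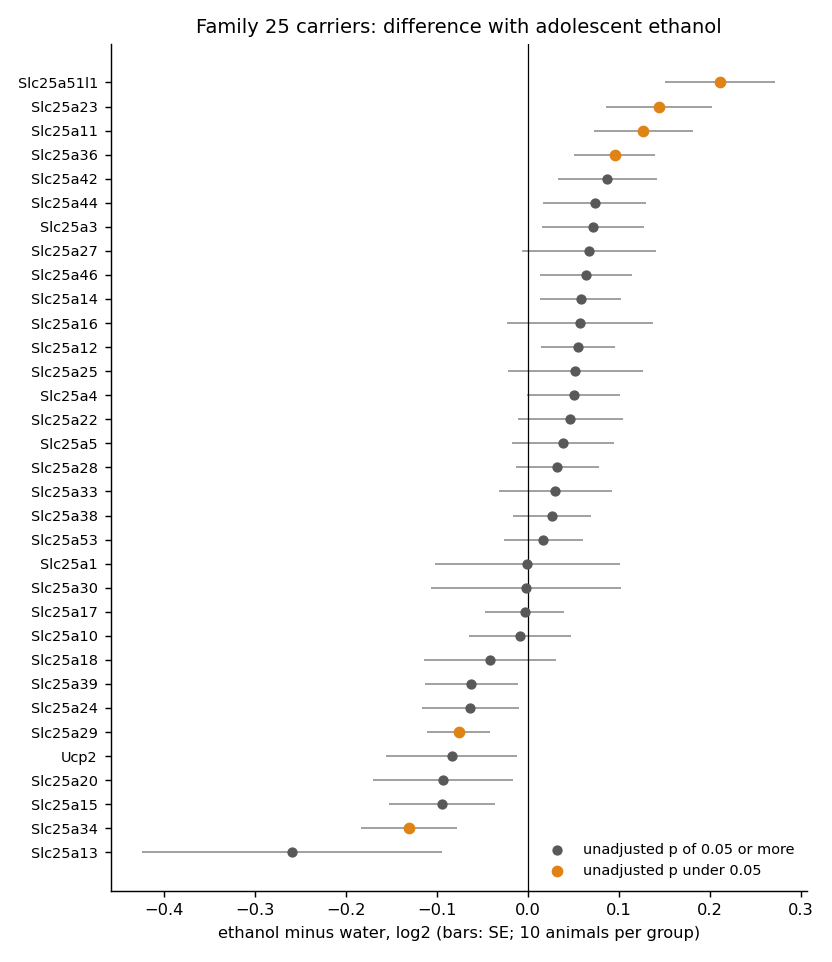
Difference of ethanol minus water on the log2 scale (x axis) for the 33 family 25 members above the filter (y axis, ordered by the difference), with bars of 1 SE and 10 animals per group. Orange points mark the 6 members at an unadjusted limma p under 0.05; no member passed the adjusted test, and Slc25a51l1 at 0.21 and Slc25a13 at -0.26 lie at the ends.

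The calcium-regulated ATP-Mg/phosphate carriers load adenine nucleotides into mitochondria when cytosolic calcium rises, and Slc25a23 was measured by 3 probe sets. Its brightest probe set, 1379073_at, ran from 10.98 to 11.65 with a median of 11.32 in the water group and from 11.36 to 11.58 with a median of 11.46 in the ethanol group. Of the 10 water animals, 8 lay below every ethanol animal, while water animal 15 was the highest of all 20, and all 10 ethanol values lay above the water mean. The difference was 0.14 (SE 0.058; limma adjusted p = 0.331), and 0.072 (SE 0.053) adjusted for the myelin score.

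Probe set 1377550_at of Slc25a23 gave the largest difference of any probe set in the family. It ran from 7.97 to 8.42 with a median of 8.21 in the water group and from 8.33 to 8.65 with a median of 8.39 in the ethanol group. Again all 10 ethanol values were above the water mean, with an overlap between 8.33 and 8.42. The difference of 0.26 (SE 0.059; limma adjusted p = 0.160), a fold of 1.20, was 0.25, 0.25 and 0.32 in the 3 sets of arrays and 0.27 adjusted for the myelin score. The third probe set, 1379169_at, lay below the filter and differed by 0.14 (SE 0.070; limma adjusted p = 0.496 with no filter). All 3 probe sets of Slc25a23 were thus higher in the ethanol group, yet from animal to animal they did not move together: within groups their r values were -0.05, -0.30 and 0.11 over 20 animals.

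The other calcium-regulated carriers lay on either side of 0. Slc25a24 ran from 8.40 to 8.88 in the water and from 8.38 to 8.63 in the ethanol group and differed by -0.06 (SE 0.054; limma adjusted p = 0.617). Slc25a25 ran from 10.28 to 10.87 and from 10.34 to 10.78 and differed by 0.05 (SE 0.074; limma adjusted p = 0.784), and by -0.05 adjusted for the myelin score. Slc25a41, whose product lacks the calcium-binding part, lay below the filter.

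The ADP/ATP translocases Slc25a4 and Slc25a5 and the phosphate carrier Slc25a3 supply the substrates of ATP synthase. Slc25a3 ran from 13.60 to 14.15 with a median of 14.01 in the water group and from 13.95 to 14.18 with a median of 14.03 in the ethanol group, a difference of 0.07 (SE 0.056; limma adjusted p = 0.591). Slc25a4 ran from 13.28 to 13.77 and from 13.58 to 13.83 and differed by 0.05 (SE 0.051; limma adjusted p = 0.684). Slc25a5 ran from 13.53 to 14.06 and from 13.70 to 13.97 and differed by 0.04 (SE 0.056; limma adjusted p = 0.787). Water animal 15 was the lowest of all 20 for each of these 3 genes, and the groups otherwise covered the same range. Without that animal the differences were 0.029, 0.0093 and 0.0055. Slc25a31, the translocase known from testis, lay below the filter.

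The malate-aspartate shuttle moves the reducing power of NADH into mitochondria through the 2-oxoglutarate/malate carrier Slc25a11 and an aspartate/glutamate carrier. Slc25a11 ran from 11.48 to 12.04 with a median of 11.89 in the water group and from 11.89 to 12.08 with a median of 11.99 in the ethanol group. All 10 ethanol values lay above the water mean, and 5 water animals lay within the ethanol range and 5 below it. The difference was 0.13 (SE 0.054; unadjusted p = 0.030, limma adjusted p = 0.348), and it was 0.083 without water animal 15. By set of arrays it was 0.26, 0.044 and 0.034.

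The aspartate/glutamate carriers are a pair of related genes. Slc25a12, the neuronal form, ran from 10.98 to 11.19 in the water and from 10.94 to 11.26 in the ethanol group, a difference of 0.06 (SE 0.041; limma adjusted p = 0.567). Slc25a13, the form also called citrin, ran from 8.44 to 9.57 with a median of 8.94 in the water group and from 7.99 to 9.32 with a median of 8.74 in the ethanol group. Both groups were widely spread and overlapped over most of their range, and ethanol animals 2 and 3, at 8.14 and 7.99, were the lowest of all 20. The difference of -0.26 (SE 0.16; limma adjusted p = 0.495) was -0.17, -0.62 and 0.27 in the 3 sets of arrays, with the same signs as the differences of the myelin score in those sets, and it was 0.06 (SE 0.072) adjusted for the myelin score. The dimmer probe set of Slc25a13, 1379592_at, lay below the filter and differed by -0.18 (SE 0.12).

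Glutamate enters brain mitochondria through Slc25a22, rich in neurons, and Slc25a18, rich in astrocytes. Slc25a22 ran from 11.51 to 11.91 in the water and from 11.52 to 11.91 in the ethanol group and differed by 0.05 (SE 0.057; limma adjusted p = 0.750), and by -0.04 adjusted for the myelin score. Slc25a18 ran from 10.47 to 10.97 and from 10.33 to 10.99 and differed by -0.04 (SE 0.073; limma adjusted p = 0.826). The groups covered nearly the same range for both genes.

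Among the other amino acid carriers, Slc25a29, which takes up basic amino acids, was the member with the smallest spread. It ran from 9.63 to 9.77 with a median of 9.68 in the water group and from 9.496 to 9.73 with a median of 9.63 in the ethanol group, where 9 of 10 animals lay below the water mean. The difference was -0.08 (SE 0.034; unadjusted p = 0.036, limma adjusted p = 0.368), and -0.05, -0.10 and -0.08 in the 3 sets of arrays. Slc25a15, the ornithine carrier of the urea cycle, had 6 probe sets that did not share a direction: the brightest differed by -0.09 (SE 0.059), the others by 0.03, -0.01, -0.08, 0.16 and 0.14, and none passed the test. Slc25a44, a carrier of branched-chain amino acids, differed by 0.07 (SE 0.057) and 0.06 (SE 0.050) on its probe sets. In all, 5 of the 9 members of the shuttle and amino acid group were higher and 4 lower, with a median difference of 0.026.

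The di- and tricarboxylate carriers export citrate and malate for lipid synthesis and other uses. Slc25a1, the citrate carrier, ran from 9.31 to 10.17 in the water and from 9.58 to 10.36 in the ethanol group, with means of 9.84 and 9.84 (SE of the difference 0.10; limma adjusted p = 0.998). Adjusted for the myelin score its difference was 0.17 (SE 0.069; unadjusted p = 0.022, limma adjusted p = 0.335). Slc25a10, the dicarboxylate carrier, differed by -0.0092 (SE 0.056) on its bright probe set and by -0.0035 (SE 0.11) on the dim one.

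Slc25a34, an uncharacterised relative of the oxaloacetate carriers, had the largest difference of this group. It ran from 8.27 to 8.65 with a median of 8.41 in the water group and from 8.14 to 8.498 with a median of 8.30 in the ethanol group. In the ethanol group 9 of 10 animals lay below the water mean, and the ranges overlapped over most of their width. The difference was -0.13 (SE 0.053; unadjusted p = 0.022, limma adjusted p = 0.329), and it was -0.20, -0.088 and -0.083 in the 3 sets of arrays. All 3 tested members of the group had a lower mean in the ethanol group, but 2 of them lay close to 0. These were Slc25a1 at -0.00088 (SE 0.10) and Slc25a10 at -0.0092 (SE 0.056). Adjusted for the myelin score they differed by 0.17 and 0.069.

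Of the 6 uncoupling proteins and their brain relatives, 4 lay above the filter and none was at an unadjusted p under 0.05. Slc25a14, a brain uncoupling protein, ran from 10.96 to 11.29 in the water and from 11.14 to 11.33 in the ethanol group, a difference of 0.06 (SE 0.044; limma adjusted p = 0.580). Slc25a27, the neuronal uncoupling protein, had 3 probe sets, all higher in the ethanol group, with differences of 0.07 (SE 0.073), 0.08 (SE 0.063) and 0.11 (SE 0.063). Slc25a30 had nearly equal means of 9.48 and 9.48, but ethanol animal 5 at 10.0003 and water animal 18 at 10.21 stood far above the other animals of their groups. Without these arrays and that of water animal 15, the difference of Slc25a30 was 0.04 (SE 0.052; limma adjusted p = 0.806).

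Ucp2, found in microglia and other cells, ran from 7.19 to 7.80 in the water and from 6.9996 to 7.59 in the ethanol group, a difference of -0.08 (SE 0.072; limma adjusted p = 0.624). Ucp1, the protein of brown fat, and Ucp3, that of muscle, lay below the filter. Their differences were 0.09 (SE 0.057) for Ucp1 and -0.07 and -0.09 for the probe sets of Ucp3.

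Carriers of cofactors, nucleotides and glutathione held the member with the smallest p. Slc25a51l1 is annotated as a gene like Slc25a51, whose product brings NAD+ into mitochondria. It ran from 8.41 to 8.84 with a median of 8.66 in the water group and from 8.68 to 9.11 with a median of 8.90 in the ethanol group. All 10 ethanol values lay above the water mean, and 7 of them above the highest water value. The difference was 0.21 (SE 0.061; unadjusted p = 0.00217, limma adjusted p = 0.239), a fold of 1.16, and it was 0.25, 0.23 and 0.096 in the 3 sets of arrays and 0.22 adjusted for the myelin score. The probes may not tell Slc25a51 and Slc25a51l1 apart, which could not be checked because no probe sequences were at hand. The 2 probe sets whose annotation names Slc25a51 under several identifiers are no members, and they differed by 0.07 (SE 0.044) and -0.03 (SE 0.073).

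Slc25a36, a carrier of pyrimidine nucleotides, ran from 11.57 to 11.82 with a median of 11.77 in the water group and from 11.66 to 12.03 with a median of 11.84 in the ethanol group. In the ethanol group 5 of 10 animals lay above every water animal, and the others overlapped with them. The difference was 0.10 (SE 0.045; unadjusted p = 0.045, limma adjusted p = 0.378), and the dimmer probe set gave 0.10 (SE 0.070). Slc25a39, a carrier of glutathione, differed by -0.06 (SE 0.051) and 0.03 (SE 0.047) on its probe sets, and Slc25a32, a folate and flavin carrier, lay below the filter with -0.0065 and -0.12. The second value leans on water animal 15, whose array stands apart: it lay at 6.23, and the next highest animal, water animal 13, at 5.58. Among the carriers of cofactors, nucleotides and glutathione 5 of 7 tested members were higher, with a median difference of 0.056.

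**Figure D2:**
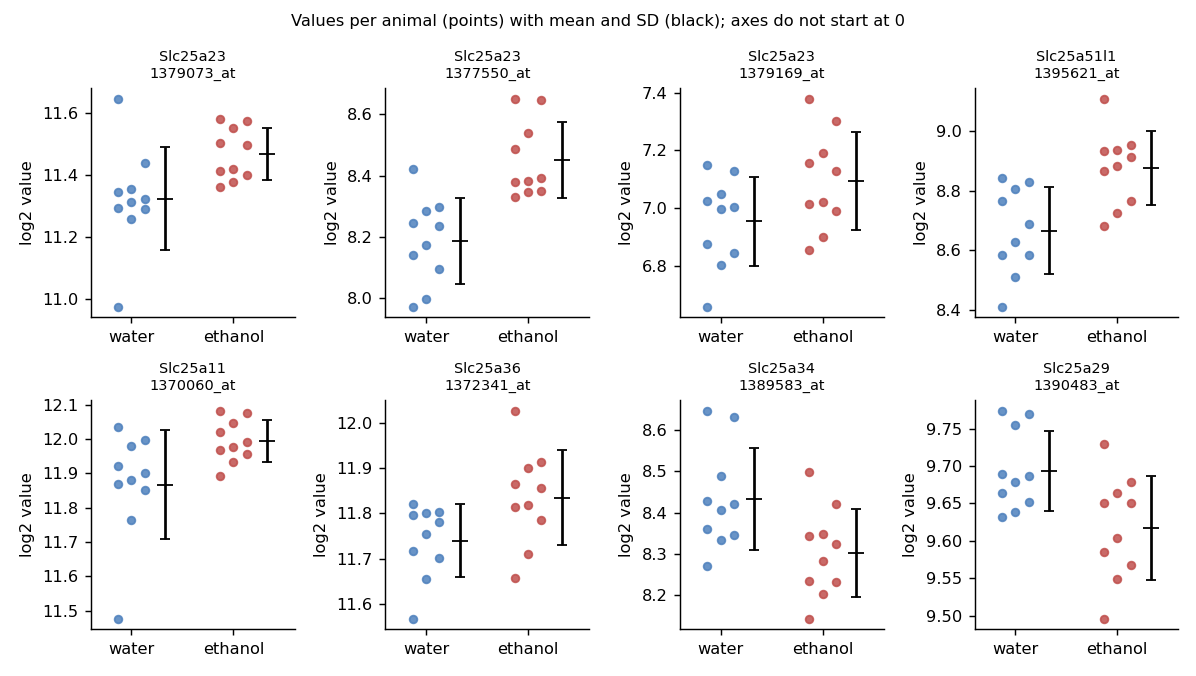
Log2 values of single animals (points; y axes do not start at 0) in the water and ethanol groups, with the mean and SD in black, for the 3 probe sets of Slc25a23 and for Slc25a51l1, Slc25a11, Slc25a36, Slc25a34 and Slc25a29. The groups overlap in every panel; all 10 ethanol animals lie above the water mean for Slc25a51l1, Slc25a11 and the 2 brighter probe sets of Slc25a23.

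The remaining members carry acyl-carnitines and iron or shape the organelle. Slc25a20, which brings acyl-carnitines to fatty acid oxidation, ran from 9.21 to 9.89 in the water and from 9.08 to 9.61 in the ethanol group, a difference of -0.09 (SE 0.077; limma adjusted p = 0.609), and 0.0099 adjusted for the myelin score. The iron importer Slc25a28 differed by 0.03 (SE 0.046) and by -0.02 adjusted for the myelin score, and its relative of red blood cell precursors, Slc25a37, lay below the filter with 0.04 (SE 0.070).

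Slc25a46 sits in the outer membrane and takes part in fusion and lipid transfer. Its bright probe set ran from 12.09 to 12.39 in the water and from 12.25 to 12.63 in the ethanol group, a difference of 0.06 (SE 0.050; limma adjusted p = 0.594). The other, 1386088_at, ran from 9.37 to 10.20 and from 9.89 to 10.41 and differed by 0.26 (SE 0.10; unadjusted p = 0.018, limma adjusted p = 0.320), with 8 of 10 ethanol animals above the water mean. Within groups these probe sets of Slc25a46 correlated at r = 0.26 over 20 animals. Slc25a48, of less settled substrate, lay below the filter on its probe sets.

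The 10 members below the filter were Slc25a21, Slc25a31, Slc25a32, Slc25a35, Slc25a37, Slc25a41, Slc25a45, Slc25a48, Ucp1 and Ucp3, with means from 4.94 to 6.70. Tested with no filter, they differed by -0.10 to 0.09, and the smallest limma p among them was 0.131 before and 0.587 after adjustment. Values this low have no clear zero on an array, so they do not show whether a transcript was present.

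Genes that work beside the carriers were counted in lists of mitochondrial pathways. In each of the 9 lists 0 genes passed limma's test. The counts below without adjustment are to be read against the 12.1% of all genes at an unadjusted p under 0.05 (6.33% higher, 5.77% lower). No share of all genes is given for the fit adjusted for the myelin score, so the adjusted counts have no background. At an unadjusted p under 0.05, the malate-aspartate and glycerol phosphate shuttle enzymes had 2 of 6 genes higher and 1 lower: the aspartate aminotransferase Got1 differed by 0.21 (SE 0.087; limma adjusted p = 0.333) and the glycerol phosphate dehydrogenase Gpd1, an enzyme of oligodendrocytes in brain, by -0.53 (SE 0.20; limma adjusted p = 0.314). In the 3 sets of arrays Got1 differed by 0.39, 0.063 and 0.17, and Gpd1 by -0.50, -0.997 and 0.36. Adjusted for the myelin score the Gpd1 difference was -0.13 and the list had 3 of 6 higher and 0 lower. The median difference of this list was 0.091. Pyruvate entry had 1 of 13 higher and 1 lower, with a median of 0.047. The lower was Pdk4, a kinase that shuts off pyruvate dehydrogenase, at -0.99 (SE 0.21; limma adjusted p = 0.140), with -1.24, -1.28 and 0.12 in the 3 sets of arrays; the higher was the dehydrogenase subunit Dld at 0.18 (SE 0.069; limma adjusted p = 0.320). Adjusted for the myelin score pyruvate entry had 3 of 13 higher and 1 lower at that p.

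The carnitine shuttle and fatty acid oxidation enzymes had 3 of 10 lower and 0 higher, with a median difference of -0.08. Cpt1a, the entry enzyme of the carnitine shuttle that feeds Slc25a20, differed by -0.17 (SE 0.049; limma adjusted p = 0.239) and lay below the water mean in 10 of 10 ethanol animals, and Acadl, an acyl-CoA dehydrogenase, differed by -0.18 (SE 0.072; limma adjusted p = 0.328). In the 3 sets of arrays Cpt1a differed by -0.25, -0.16 and -0.025, and Acadl by -0.23, -0.24 and 0.047. Adjusted for the myelin score this list had 1 of 10 lower and a median of -0.0033.

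Lists with 1 gene higher at an unadjusted p under 0.05 were the outer membrane channels and translocases (1 of 13, Tomm70, a receptor for carrier precursors, at 0.14), the regulators of mitochondrial gene expression (1 of 12, Tfb2m at 0.15) and fission and fusion (1 of 8, the fission GTPase Dnm1l at 0.20). The tricarboxylic acid cycle (0 of 14), the ATP synthase subunits (0 of 9) and the calcium uniporter list (0 of 6) had none. Adjusted for the myelin score, at the same unadjusted p, the tricarboxylic acid cycle had 4 of 14 higher, the ATP synthase subunits 2 of 9, the outer membrane list 2 of 13, and fission and fusion 2 of 8, each with 0 lower, the regulators had 1 higher and 1 lower, and the calcium uniporter list had 0. These adjusted counts have no share of all genes beside them, so they do not set these lists apart from other genes. Without adjustment, the genes with the smallest p in the tricarboxylic acid cycle, ATP synthase and calcium lists were Idh2 at -0.18 (SE 0.099), Atp5f1a at 0.12 (SE 0.058) and the uniporter regulator Micu3 at 0.11 (SE 0.059). The median differences of these 6 lists lay between 0.023 and 0.050.

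Members were then compared from animal to animal within groups, after subtracting each group's mean, for all 528 pairs of the 33 members. By permutation within groups, two-sided and with 100000 resamples, with Benjamini-Hochberg adjustment over the 528 pairs, 45 pairs passed an adjusted p of 0.05 by Pearson's r, 29 of them positive and 16 negative, and 9 passed by Spearman's rho. The median r of member pairs was 0.095 against 0.020 over 51597561 pairs of genes above the filter. Positive were 63.3% of member pairs and 52.3% of all pairs. An r beyond 0.7 in either direction was found for 27 member pairs, or 5.11%, where the share over all gene pairs was 2.26%. Pairs that share a gene are not independent of each other.

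The count of 45 pairs rests in part on single animals. It was 13 without water animal 15, 13 without 17, 16 without 18, 23 without 16, 23 without 19, 24 without 13 and 28 without 21, and 14 and 28 without ethanol animals 3 and 8. Without the 3 arrays that stand apart it was 8, of which 5 were among the 45. After centring within both group and set of arrays it was 1, and with the myelin score regressed out it was 0. The r of a pair could stay as large where its call was lost, so for the named pairs the r under these settings is given with each pair.

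The strongest pair joined the phosphate carrier with an ADP/ATP translocase: Slc25a3 and Slc25a4 correlated at r = 0.86 (rho = 0.73, permutation p = 0.00012, adjusted p = 0.0106). The value was 0.49 within the ethanol and 0.94 within the water group, 0.67 without water animals 15 and 18, the farthest in Slc25a3, and 0.83 after centring within sets of arrays. Without the arrays that stand apart it was 0.69 (adjusted p = 0.0920), and with the myelin score regressed out 0.81 (adjusted p = 0.0519). Leaving out water animal 15 took the adjusted p to 0.0657. The translocases Slc25a4 and Slc25a5 correlated at r = 0.81 (rho = 0.72, permutation p = 1e-04, adjusted p = 0.0106), with 0.85 within the ethanol and 0.80 within the water group. It was 0.62 without ethanol animal 3 and water animal 15, the farthest in Slc25a4, and 0.77 after centring within sets of arrays, and it missed the threshold without water animal 15, at an adjusted p of 0.0625. Without the arrays that stand apart it was 0.74 (adjusted p = 0.0653), and with the myelin score regressed out 0.73 (adjusted p = 0.0528). The genes of both pairs thus moved together among animals, less closely without water animal 15, in which all 3 genes were lowest. Neither pair passed after centring within sets of arrays (adjusted p = 0.104 for each). Neither passed without the arrays that stand apart or with the myelin score regressed out.

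Slc25a1, the citrate carrier, was a partner in 3 of the 6 strongest positive pairs. With Slc25a10 it gave r = 0.83 (rho = 0.70, permutation p = 9e-05, adjusted p = 0.0106), and 0.61 without ethanol animal 1 and water animal 15. With Slc25a13 it gave r = 0.81 (rho = 0.79, permutation p = 1e-05, the smallest that 100000 resamples can give, adjusted p = 0.00528), and 0.77 without the same animals. With Slc25a3 it gave r = 0.81 (rho = 0.66, permutation p = 6e-05, adjusted p = 0.0106), and 0.65 without them. After centring within sets of arrays these values were 0.84, 0.80 and 0.86, and without the arrays that stand apart 0.75, 0.78 and 0.75, with adjusted p values of 0.0781, 0.0309 and 0.0356. Each passed in all 20 settings that left out 1 animal, with the highest adjusted p at 0.0414. With the myelin score regressed out, Slc25a1 and Slc25a13 correlated at 0.26 (adjusted p = 0.615), while Slc25a1 correlated with Slc25a10 at 0.61 (adjusted p = 0.0614) and with Slc25a3 at 0.68 (adjusted p = 0.0528).

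The sixth positive pair was Slc25a3 with the pyrimidine nucleotide carrier Slc25a33 at r = 0.76 (rho = 0.58, permutation p = 0.00301, adjusted p = 0.0441). It was 0.43 without water animals 15 and 18, so its size rests in large part on them. It missed the threshold in 13 of the 20 settings that left out 1 animal, among them animals of both groups. It was 0.44 without the arrays that stand apart, 0.81 after centring within sets of arrays and 0.66 with the myelin score regressed out.

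Among negative pairs, Slc25a3 and Slc25a53, a member of unsettled substrate, gave r = -0.77 (rho = -0.79, permutation p = 0.00075, adjusted p = 0.0264), and -0.71 without water animals 15 and 18. It was -0.50 after centring within sets of arrays, -0.69 without the arrays that stand apart (adjusted p = 0.108) and -0.75 with the myelin score regressed out (adjusted p = 0.0519), and it missed the threshold without water animal 17, at 0.0542. Slc25a13 and the glutamate carrier Slc25a22 gave r = -0.76 (rho = -0.77, permutation p = 0.00023, adjusted p = 0.0173). It was -0.72 without ethanol animals 1 and 3, -0.68 after centring within sets of arrays, -0.74 without the arrays that stand apart (adjusted p = 0.0781) and -0.28 with the myelin score regressed out (adjusted p = 0.603), and it passed in all 20 settings that left out 1 animal.

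Slc25a17, the peroxisomal carrier of coenzyme A and NAD+, ran against Slc25a23 at r = -0.76 (rho = -0.57, permutation p = 0.00129, adjusted p = 0.0310). That pair was -0.42 without water animals 15 and 18, rests on them, and missed the threshold in 5 of 20 settings. It was -0.71 after centring within sets of arrays, -0.39 without the arrays that stand apart and -0.67 with the myelin score regressed out. Slc25a27 and the glycine carrier Slc25a38 gave r = -0.76 (rho = -0.66, permutation p = 0.00044, adjusted p = 0.0230), and -0.54 without ethanol animal 3 and water animal 18. It missed the threshold without ethanol animal 3 or without water animal 15, with the highest adjusted p at 0.0918, and was -0.82 after centring within sets of arrays. It was -0.70 without the arrays that stand apart (adjusted p = 0.153) and -0.72 with the myelin score regressed out (adjusted p = 0.0528).

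Of the 45 pairs, 13 had an r under 0.5 in size in at least 1 group, and Slc25a5 with Slc25a17 changed sign between groups, at -0.22 within the ethanol and 0.89 within the water group. Whether the groups differ in a pair was not tested.

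**Figure D3:**
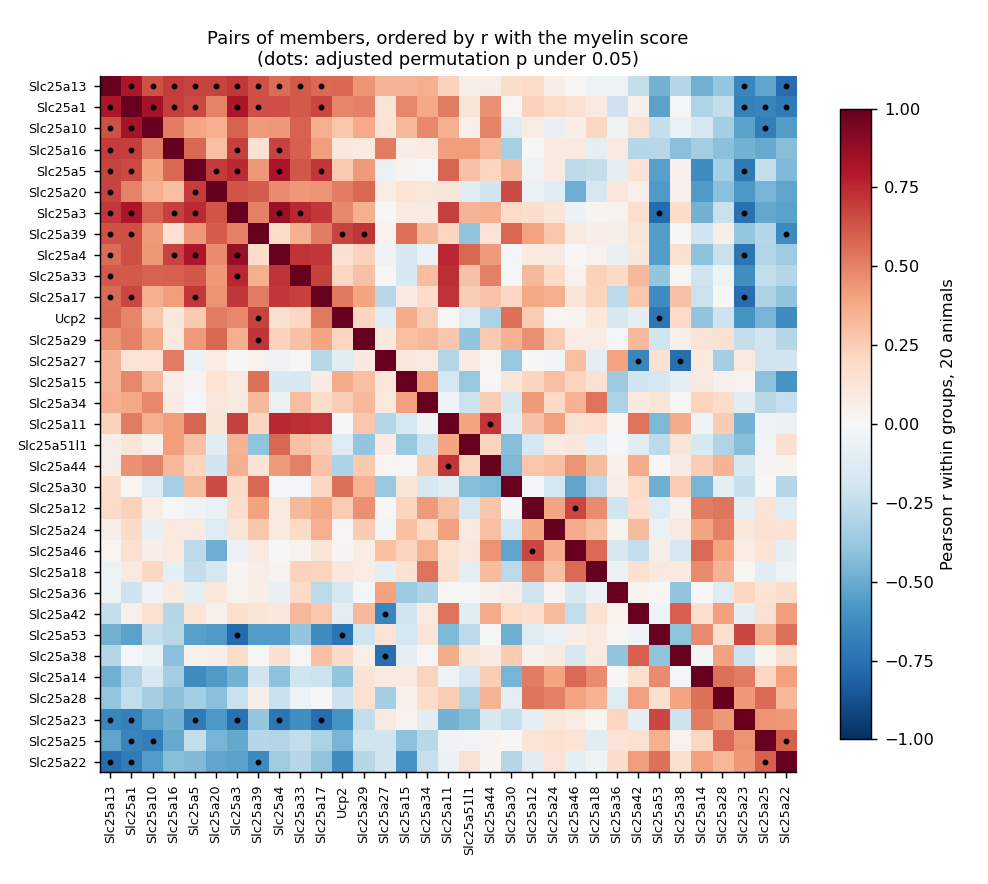
Pearson's r within groups over 20 animals (colour, -1 to 1) for all pairs of the 33 members, ordered on both axes by their r with the myelin marker score from high to low. Dots mark the 45 pairs at an adjusted permutation p under 0.05; positive ones gather at the upper left, among Slc25a13, Slc25a1, Slc25a10 and the ATP supply genes, and those with Slc25a22, Slc25a25 and Slc25a23 are mostly negative.

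**Figure D4:**
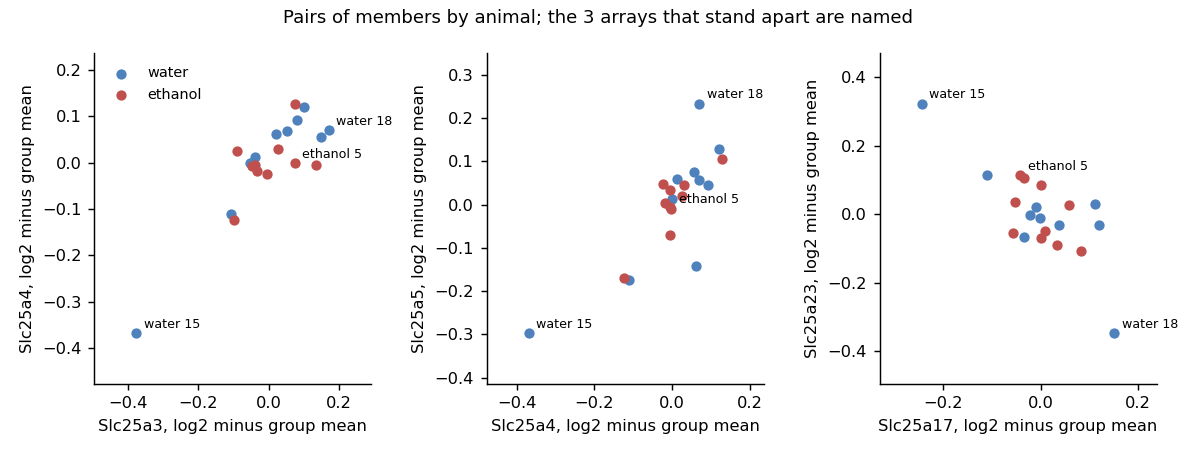
Log2 values minus the group mean of single animals for Slc25a3 with Slc25a4, Slc25a4 with Slc25a5, and Slc25a17 with Slc25a23 (blue: water, red: ethanol), with the names of the 3 animals whose arrays stand apart. Water animal 15 lies far from the others in each panel, and Slc25a3 with Slc25a4 correlated at 0.66 without it.

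Each member was then set against the mean level of 14 oligodendrocyte and myelin markers, 14 neuronal and 11 astrocyte markers, in 99 relations tested and adjusted as the pairs were. Of the 99 relations 16 passed: 10 with the myelin score, 7 of them positive, 4 with the astrocyte score and 2 with the neuronal score. An r beyond 0.7 in size with the myelin score was found for 5 of 33 members, or 15.2%, and for 9.82% of all genes above the filter. With the neuronal score it was found for 0 of 33 members and 2.54% of all genes, and with the astrocyte score for 0 of 33 and 3.24%. The myelin and astrocyte scores themselves correlated at 0.73. The count of 16 was 8 after centring within sets of arrays and 8 without the 3 arrays that stand apart, and it was 10 without ethanol animal 1, 8 without ethanol animal 3 and 9 without water animal 18.

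Slc25a13 followed the myelin score most closely, at r = 0.93 (rho = 0.90, permutation p = 1e-05, adjusted p = 0.00099). It was 0.91 within the ethanol and 0.95 within the water group, 0.89 without ethanol animal 3 and water animal 18, the farthest in the score, 0.90 after centring within sets of arrays and 0.91 without the arrays that stand apart. It passed in all 20 settings that left out 1 animal. The dimmer probe set of Slc25a13 gave 0.66. Of 10145 genes outside the score, 114 (1.12%) had an r at or above that of Slc25a13, so it stood among those closest to myelin but not alone. Slc25a12, the other aspartate/glutamate carrier, gave -0.03 (permutation p = 0.921).

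Slc25a1 gave r = 0.81 with the myelin score (rho = 0.81, permutation p = 8e-05, adjusted p = 0.00396), and Slc25a10 gave 0.71 (rho = 0.73, permutation p = 0.00071, adjusted p = 0.0148), although its dim probe set gave 0.06. Without ethanol animal 3 and water animal 18 these were 0.80 and 0.69, and after centring within sets of arrays 0.85 and 0.76. Slc25a16, a carrier linked to coenzyme A, gave 0.70 (adjusted p = 0.0148), Slc25a5 0.66 (adjusted p = 0.0148) and Slc25a20 0.66 (adjusted p = 0.0174). Without the same animals these were 0.72, 0.50 and 0.45. Each missed the threshold without ethanol animal 3, as Slc25a20 also did without water animal 18. After centring within sets of arrays they were 0.64, 0.52 and 0.59, with adjusted p values of 0.176, 0.167 and 0.0595, so none of them passed there. The seventh was Slc25a3, at 0.61 (adjusted p = 0.0190), and at 0.66 after centring within sets of arrays (adjusted p = 0.015). Without the arrays that stand apart, Slc25a1 at 0.78 (adjusted p = 0.0198) and Slc25a16 at 0.77 (adjusted p = 0.0172) still passed, while Slc25a10 at 0.66 (adjusted p = 0.0575), Slc25a5 at 0.56 (adjusted p = 0.105), Slc25a20 at 0.68 (adjusted p = 0.0562) and Slc25a3 at 0.57 (adjusted p = 0.104) did not.

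Slc25a22 ran against the myelin score at r = -0.75 (rho = -0.71, permutation p = 0.00023, adjusted p = 0.00759), at -0.72 without ethanol animal 3 and water animal 18. Slc25a25 gave -0.66 (rho = -0.68, adjusted p = 0.0174), and -0.71 without those animals. Slc25a23 gave -0.63 (rho = -0.61, adjusted p = 0.0174) on its brightest probe set, -0.55 without those animals, and it missed the threshold without water animal 15 or water animal 18. The other probe sets of Slc25a23 gave 0.04 and 0.05, so the relation was seen on 1 of its 3 probe sets. After centring within sets of arrays the 3 relations were -0.62, -0.64 and -0.61, with adjusted p values of 0.127, 0.0691 and 0.0507. Without the arrays that stand apart they were -0.74, -0.59 and -0.55, with adjusted p values of 0.0358, 0.0711 and 0.134.

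With the neuronal score, Slc25a46 gave r = 0.65 (adjusted p = 0.0337) and Slc25a30 gave -0.66 (rho = -0.55, adjusted p = 0.0190). The relation of Slc25a30 was -0.32 (adjusted p = 0.434) without the arrays that stand apart, 2 of which hold its highest values, and that of Slc25a46 was 0.53 (adjusted p = 0.143) without them and 0.78 (adjusted p = 0.0595) after centring within sets of arrays. With the astrocyte score, Slc25a34 gave 0.66 (adjusted p = 0.0174), Slc25a10 0.63 (adjusted p = 0.0190), Slc25a13 0.61 (adjusted p = 0.0404) and Slc25a1 0.58 (adjusted p = 0.0385). Without the arrays that stand apart these were 0.64, 0.60, 0.66 and 0.56, with adjusted p values of 0.0603, 0.0884, 0.0603 and 0.117, so none of the 4 passed. The glutamate carriers did not pass with the scores of the cells they are known from. Slc25a22 gave -0.24 with the neuronal score (adjusted p = 0.541) and Slc25a18 gave 0.35 with the astrocyte score (adjusted p = 0.354).

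**Figure D5:**
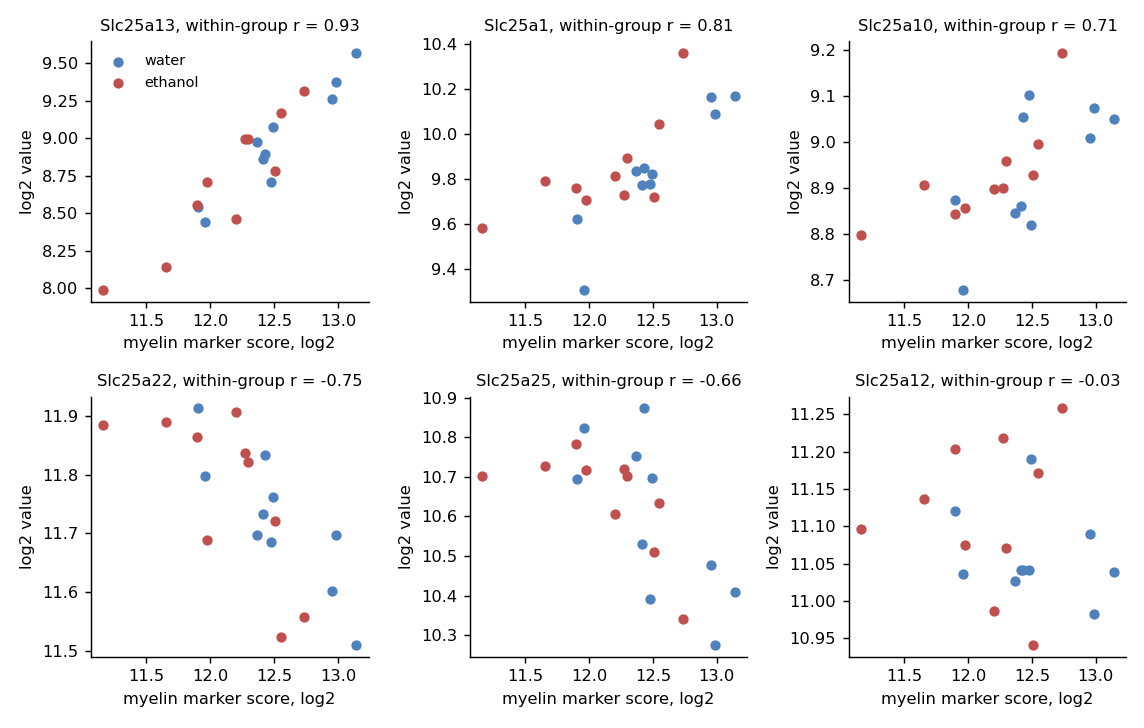
Log2 value of Slc25a13, Slc25a1, Slc25a10, Slc25a22, Slc25a25 and Slc25a12 (y axes) against the mean log2 level of 14 myelin markers (x axis) in single animals (blue: water, red: ethanol). Slc25a13 is higher at higher scores in both groups (r = 0.93), Slc25a22 is lower (r = -0.75) and Slc25a12 shows no slope (r = -0.03).

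Promoters of the 3 members with the largest r with the myelin score, and of the 1 that ran most against it, are shown so that their start regions can be compared. They are RefSeq sequences of build GRCr8, from 250 bases before to 50 bases after the annotated start, printed in the direction of the gene. Capitals mark each match on either strand to the GC box GGGCGG, which reads CCGCCC on the other strand, or to the core GCGCATGC bound by the mitochondrial regulator NRF1; no marked matches overlap. Slc25a1 lies at chr11:96559804-96560103 (+), Slc25a10 at chr10:106264146-106264445 (+), Slc25a13 at chr4:35328311-35328610 (-) and Slc25a22 at chr1:205965828-205966127 (-).
Slc25a1: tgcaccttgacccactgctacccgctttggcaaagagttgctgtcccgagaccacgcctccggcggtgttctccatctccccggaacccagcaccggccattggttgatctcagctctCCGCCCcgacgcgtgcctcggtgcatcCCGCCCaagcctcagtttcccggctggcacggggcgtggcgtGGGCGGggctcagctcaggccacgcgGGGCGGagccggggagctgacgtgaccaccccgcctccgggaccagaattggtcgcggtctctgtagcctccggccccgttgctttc
Slc25a10: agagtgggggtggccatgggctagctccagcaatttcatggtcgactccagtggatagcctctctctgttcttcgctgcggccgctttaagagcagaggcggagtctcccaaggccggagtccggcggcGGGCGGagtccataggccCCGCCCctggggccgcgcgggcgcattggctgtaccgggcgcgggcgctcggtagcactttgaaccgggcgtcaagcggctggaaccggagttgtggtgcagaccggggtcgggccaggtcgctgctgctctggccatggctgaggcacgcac
Slc25a13: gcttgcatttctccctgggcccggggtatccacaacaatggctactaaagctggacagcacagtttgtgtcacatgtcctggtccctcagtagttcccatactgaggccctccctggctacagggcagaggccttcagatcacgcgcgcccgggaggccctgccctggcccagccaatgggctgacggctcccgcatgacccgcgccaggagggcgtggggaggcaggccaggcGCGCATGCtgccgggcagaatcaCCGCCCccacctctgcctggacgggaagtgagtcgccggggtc
Slc25a22: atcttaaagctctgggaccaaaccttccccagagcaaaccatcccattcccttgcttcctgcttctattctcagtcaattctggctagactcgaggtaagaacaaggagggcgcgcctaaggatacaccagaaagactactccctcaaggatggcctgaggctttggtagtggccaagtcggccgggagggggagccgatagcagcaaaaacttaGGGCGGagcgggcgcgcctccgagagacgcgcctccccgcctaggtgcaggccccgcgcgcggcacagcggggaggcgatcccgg

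Their GC contents were 68.7%, 68.0%, 66.3% and 61.0% in the order shown. The other members that passed positively with the score had 60.3% (Slc25a16), 56.7% (Slc25a20), 64.0% (Slc25a5) and 65.7% (Slc25a3), values that lie on both sides of that of Slc25a22. The 4 promoters shown held 4, 2, 1 and 1 matches to the GC box, and Slc25a13 alone among the 4 held the core GCGCATGC. None of the 4 held ACAAAG, the core letters of SOX factors such as the oligodendrocyte factor Sox10.

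Of the 43 members, 37 had a promoter in the RefSeq table. Their median GC content was 60.3% and their median number of CpG dinucleotides was 17, against 51.7% and 7 over all 33469 promoters of the same length. The GC box GGGCGG was found in 67.6% of the 37 and in 33.1% of all, CCGGAAG of ETS factors in 16.2% and 8.75%, the cyclic AMP element TGACGTCA in 5.41% and 1.83%, and GCGCATGC in 5.41% and 2.47%, always counting both strands. ACAAAG was found in 5.41% against 18.8%, and the TATA box TATAAA in 8.11% against 14.2%. These are counts of letters in a fixed window and do not show that a factor binds.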

How the data were processed

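RNA of the central nucleus of the amygdala of 10 ethanol and 10 water rats was measured on Affymetrix arrays, 1 per animal. The authors deposited log2 summaries, 1 per probe set and array, made with RMA, per the submitters' processing notes. RMA's version and settings and the authors' test were not given in the sources used here. Of 31099 probe sets, 57 are controls, 20826 have 1 symbol and 436 several. Symbols were checked by Entrez identifier against RefSeq gene names of GRCr8.

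A filter kept the 18625 probe sets (10159 genes) with a mean above log2 7.14, the 40th percentile. Ethanol minus water was then fitted to all 18625 (limma 3.58.1 under R 4.3.3, with moderated variances), and two-sided p-values were adjusted by Benjamini and Hochberg's method. Members below the filter took values from a fit with no filter. Pairs of members, and members against marker scores (the mean of each marker list), were tested within groups by permutation with 100000 resamples in Python 3.11.15. Pairs of other probe sets are descriptions without a test, and relations of all probe sets with the scores were adjusted over 186. The fit and the permutation tests were tested on simulated data.

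The members, lists, tests and naming rule were chosen with earlier results of these data known. Named were members at an unadjusted p under 0.05, the best known carriers whatever their result, and members with several probe sets. Also named were up to 6 positive and 4 negative pairs and score relations, and up to 2 genes per pathway list. Relations with the astrocyte score, Slc25a46 and Slc25a22 with the neuronal score and Slc25a3 with the myelin score were named after their values were seen. Alternatives were the filter, median centring, cyclic loess, array weights, trend and robust eBayes, the set of arrays in deposit order as a block (no label names it a batch), the 3' to 5' ratio, the myelin and the neuronal score as covariates, the mean of all probe sets of a gene, 1 probe set per gene, a plain linear model, a looser adjusted threshold of 0.10, each animal left out, and the arrays that stand apart left out. Leaving out each animal in turn for pairs and score relations was chosen after seeing the data. Promoters came from RefSeq tables of GRCr8.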

Additional observations from a re-analysis of the deposited data

Results flagged for a closer look

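Single animals lay far from the other 9 of their group, by Dixon's criterion for 10 values, in 11 of the 66 groups examined (33 members in each group). Chance gives about 1 flag in 20 groups. Water animal 15 was the lowest of its group for Slc25a3 at 13.598, Slc25a4 at 13.284, Slc25a11 at 11.477 and Slc25a33 at 10.424, and its array is among the 3 that stand apart over all probe sets. The group medians of these genes were 14.01, 13.712, 11.891 and 10.888. Of the other arrays that stand apart, water animal 18 was the highest for Slc25a30 at 10.215 and Ucp2 at 7.7988, and ethanol animal 5 was the highest for Slc25a30 at 10.0003. Ethanol animal 1, with the highest myelin score of its group, was the highest for Slc25a10 at 9.1935 and Slc25a46 at 12.632. Ethanol animal 3, with the lowest myelin score of all, was the lowest for Slc25a27 at 9.2788 and the highest for Slc25a38 at 8.9065. What sets these animals apart was not tested.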

How the results depend on the processing

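Of the 33 members, 0 passed limma's adjusted test under every alternative run, including an adjusted threshold of 0.10 and each animal left out. The number at an unadjusted p under 0.05 was 3 without the arrays that stand apart. It was 3 to 7 with 1 animal left out, with 3 (Slc25a23, Slc25a34 and Slc25a51l1) without ethanol animal 6. Adjusted for the myelin score that number was 6, all higher, of which 2 were among the 6 reported. No share of all genes under the adjusted fit is given beside it. The members' median difference stayed between 0.0093 and 0.053. Of 26 named members, 18 kept their direction in all alternatives. Adjustment for the myelin score turned the sign for Slc25a10 (0.069), Slc25a13 (0.064), Slc25a20 (0.0099), Slc25a22 (-0.038), Slc25a25 (-0.048) and Slc25a28 (-0.017). Slc25a15 turned with the mean of all its probe sets (0.023), and with 1 animal left out Slc25a10 ran from -0.039 to 0.0091. Slc25a30, near 0, turned with median centring (0.0048), array weights (0.056), the mean of its probe sets (0.034), the myelin (0.015) and neuronal (0.13) scores and without the arrays that stand apart (0.044), and ran from -0.060 to 0.080 with 1 animal left out. Pairs of members past the adjusted threshold numbered 0 with the myelin score regressed out, 1 after centring within sets of arrays, 8 without the arrays that stand apart and 13 to 48 with 1 animal left out. Score relations numbered 8 after centring within sets of arrays, 8 without the arrays that stand apart and 8 to 18 with 1 animal left out. The pathway lists had 0 genes past the test with no filter, adjusted for the myelin score and after cyclic loess, the alternatives run for them. Causes of these shifts were not tested. The median SE of 0.062 over all probe sets limits what 10 arrays per group can show. No paired analysis was possible because no animal number occurs in both groups.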
